A study of Mus musculus with 10 samples.

Results

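The glial connexins of the mouse spinal cord described here are Gjb1 and Gjc3, which encode Cx32 and Cx29 of oligodendrocytes, and Gja1 and Gjb6, which encode Cx43 and Cx30 of astrocytes. They were chosen by gene identifier (Gjb1 14618, Gjc3 118446, Gja1 14609, Gjb6 14623) and are 4 of the 26301 genes in the count tables, and all 4 passed the filter on low counts that left 15540 genes. The libraries were made from total RNA that was extracted with Trizol from the spinal cords of C57BL/6 mice, with no other genotype or treatment given. There were 2 libraries from males and 2 from females aged 4 weeks, and 3 from males and 3 from females aged 8 weeks. The labels do not say whether each library came from a separate animal, so the p-values measure the spread between these libraries, which may be technical. The libraries held between 8453559 and 11594610 counted reads, and each of the 4 genes had between 898 and 5787 reads in every library. Libraries of 1 group differed by more than sampling noise (chi-square per degree of freedom of 1.92 to 11.2), so none was counted as a second sequencing of another. These values cannot tell separate animals from separate preparations of the same animal. On the first principal component, with 35.8% of the variance, male 4-week library 1 stood apart at -43.9, the other 4-week libraries lay between -19 and -10.9 and the 8-week libraries between 8.9 and 20.3. Genes of skeletal muscle were higher in the 4-week libraries, adrenal cortex genes in both 4-week male libraries and lung genes in male 8-week libraries 2 and 3, and the connexin values without these libraries are given further on.

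Connexins are membrane proteins that assemble into hexameric hemichannels, and hemichannels of neighbouring cells dock to form gap junctions that pass ions and small metabolites. In central white matter, oligodendrocytes and astrocytes are joined into a panglial network in which Cx32 on the oligodendrocyte pairs with Cx30 on the astrocyte, and Cx43 is the most abundant connexin of astrocytes. The network is known for carrying potassium away from active myelinated axons. Cx29 lies on the innermost myelin membrane facing the axon and is not known to form gap junctions, and both Cx32 and Cx29 are also made by the Schwann cells of peripheral nerve.

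The 250 bases upstream of the start site are shown for both oligodendrocyte connexins, since these were the members whose level changed with age. They come from RefSeq's annotation of GRCm38.p6, a later build than the mm9 used for the deposited counts, and all 4 members matched an entry. Gjc3 has 1 start site, on the minus strand, with the upstream bases at chr5:137963099-137963348. Gjb1 has 4 start sites on the plus strand of the X chromosome, and the one shown has its upstream bases at chrX:101383482-101383731. Each is written 5′ to 3′ along the gene's own strand, and capitals mark matches to ACAAAG or ACAATG, short cores of the kind bound by SOX-family factors such as Sox10, a regulator of oligodendrocyte genes.
Gjc3: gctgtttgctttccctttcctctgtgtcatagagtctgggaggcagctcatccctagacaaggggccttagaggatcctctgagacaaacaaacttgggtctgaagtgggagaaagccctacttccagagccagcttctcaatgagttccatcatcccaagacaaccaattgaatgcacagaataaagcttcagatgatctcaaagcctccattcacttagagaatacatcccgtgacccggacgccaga
Gjb1: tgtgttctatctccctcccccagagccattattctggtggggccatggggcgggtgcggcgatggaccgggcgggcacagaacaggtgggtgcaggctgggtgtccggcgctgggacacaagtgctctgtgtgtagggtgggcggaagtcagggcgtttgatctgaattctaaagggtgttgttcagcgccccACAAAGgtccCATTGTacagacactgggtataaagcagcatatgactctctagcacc
The Gjb1 stretch holds ACAAAG starting at position -57 from the start site and ACAATG, on the opposite strand, at position -47. Both motifs were searched on both strands over 300-base windows, which add 50 bases after each start, and the motifs share their first letters but did not overlap here. Of the 4 Gjb1 windows 2 held a match, and the single windows of Gjc3, Gja1 and Gjb6 held none. The Gjb1 window shown held 2 matches, the most of the 4 Gjb1 windows. The share of single windows with at least 2 matches, given below, is therefore not a like comparison for it. Over the 4 members, 2 of 7 windows held a match, a share near that of all windows. Over all 32851 windows that RefSeq gives, 28.6% held either motif and 5.6% held at least 2 matches. A match describes the letters of a window and not a bound site, and the counts do not tell the 4 Gjb1 start sites apart.

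Age was the first comparison, made over both sexes with sex as a term in the model. Gjc3 and Gjb1 fell between 4 and 8 weeks, and no change was called for Gja1 or Gjb6. Thus 2 of the 4 genes were lower at an adjusted p under 0.05 in edgeR's quasi-likelihood test, beside 5.01% of all genes tested, and 0 of the 4 were higher, beside 1.61%. The 4 genes and the gene lists below were chosen with earlier results of these data known, so such counts are descriptions and not independent evidence. Neither Gja1 nor Gjb6 had an unadjusted p under 0.05 in edgeR, which 21% of all genes tested had, and neither was called by DESeq2 or limma-voom. All levels below are CPM, the gene's share of a library's counted reads on a common per-million scale, with library sizes scaled by edgeR's normalization factors.

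Gjc3 showed the larger fall. Its level was 253 and 295 CPM in the 4-week males and 275 and 298 CPM in the 4-week females. At 8 weeks it was 193, 202 and 187 CPM in males and 212, 218 and 223 CPM in females. Every 8-week library lay below every 4-week library, a separation that 4.84% of all genes tested showed in this direction and 2.89% in the other. The mean was 280.1 ± 21.1 CPM at 4 weeks (SD, n = 4) and 206 ± 14.2 CPM at 8 weeks (SD, n = 6), a log2 change of -0.45 (SE 0.06, 95% interval -0.57 to -0.33, edgeR adjusted p = 0.000233).

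Gjb1, the Cx32 gene, changed by less. It was at 173 and 163 CPM in the 4-week males and 177 and 171 CPM in the 4-week females, against 144, 146 and 132 CPM in the 8-week males and 143, 165 and 134 CPM in the 8-week females. The groups overlapped through 1 library, female 8-week library 2, which lay above male 4-week library 2, and the other 5 of 6 libraries at 8 weeks were below all 4-week libraries. The mean was 171 ± 5.90 CPM at 4 weeks (SD, n = 4) and 144 ± 12 CPM at 8 weeks (SD, n = 6), a log2 change of -0.25 (SE 0.06, 95% interval -0.38 to -0.12, edgeR adjusted p = 0.0249). The call ended, at nearly the same size of change, when any 1 of 6 libraries was left out. At 4 weeks these were male library 1 (edgeR adjusted p = 0.0721 without it), female library 1 (0.0659) and female library 2 (0.0515). At 8 weeks they were male library 3 (0.0584), female library 1 (0.0663) and female library 3 (0.0534).

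**Figure D1:**
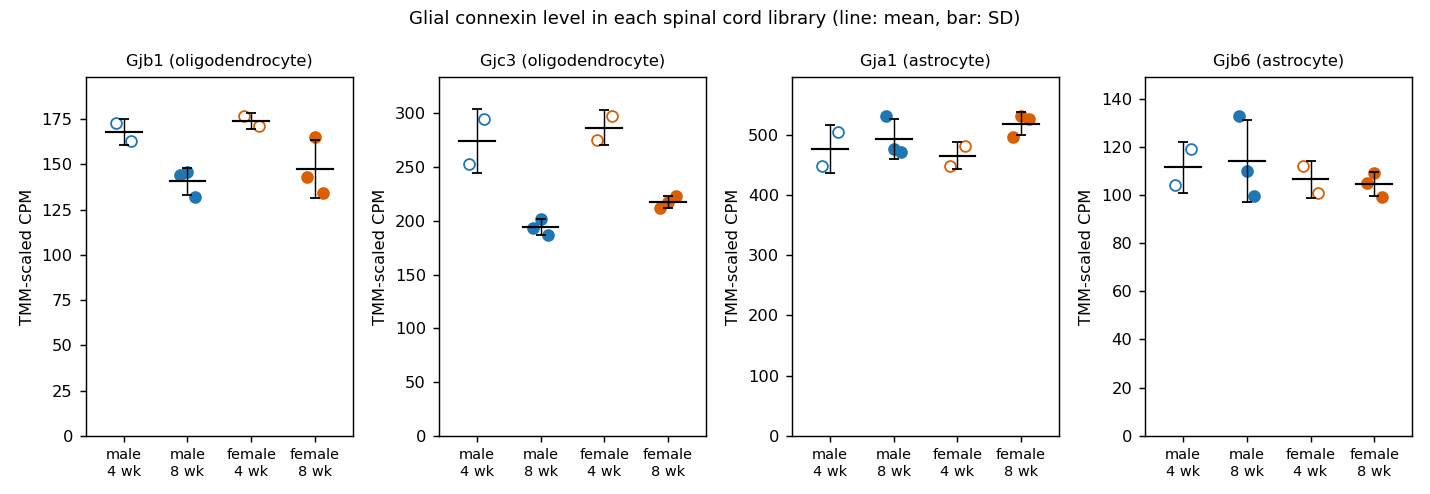
Level of each of the 4 connexin genes (CPM, linear axis) in every library, by age and sex, with open points at 4 weeks, filled points at 8 weeks, and lines and bars for the group mean and SD. The Gjc3 points at 8 weeks (187 to 223 CPM) all lie below those at 4 weeks (253 to 298 CPM), Gjb1 overlaps through 1 library, and the Gja1 and Gjb6 points overlap widely.

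Gja1, the gene of the main astrocyte connexin Cx43, was at 448 and 504 CPM in the 4-week males and 449 and 481 CPM in the 4-week females. At 8 weeks it was at 531, 476 and 472 CPM in males and 497, 532 and 527 CPM in females. The ages overlapped, with 3 of the 6 libraries at 8 weeks above all those at 4 weeks. The means were 470.4 ± 27.2 CPM (SD, n = 4) and 506 ± 27.9 CPM (SD, n = 6), and the log2 change was 0.10 (SE 0.06, 95% interval -0.02 to 0.23, edgeR adjusted p = 0.315).

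Gjb6, the Cx30 gene, was at 104 and 119 CPM in the 4-week males and 112 and 101 CPM in the 4-week females. At 8 weeks it was at 133, 110 and 99.4 CPM in males and 105, 109 and 99.1 CPM in females. Both the highest and the lowest value were at 8 weeks, so that the 4-week range fell inside the 8-week range. The mean was 109 CPM at both ages, with an SD of 8.21 CPM at 4 weeks and 12.4 CPM at 8 weeks, and the log2 change was 0.00 (SE 0.08, 95% interval -0.17 to 0.16, edgeR adjusted p = 0.998). For both astrocyte connexins these intervals give the range of change that the libraries allow, and no change was shown to be absent.

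**Figure D2:**
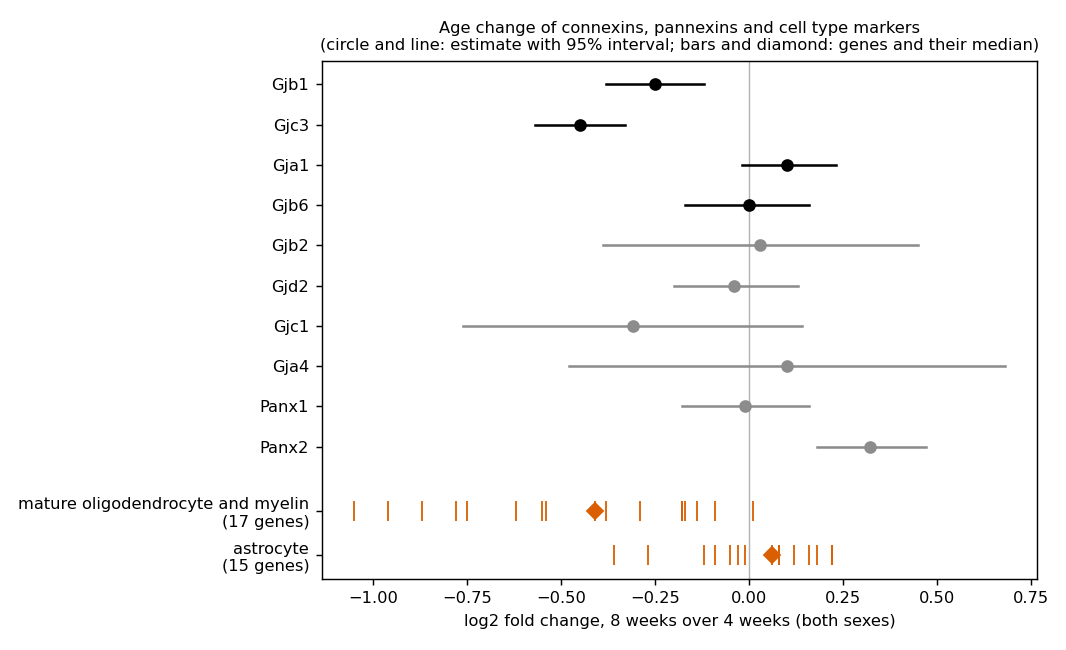
Log2 change from 4 to 8 weeks with its 95% interval for the 4 connexin genes (black) and other connexins and pannexins (grey), above 17 oligodendrocyte and 15 astrocyte marker genes (ticks, with the median as a diamond). The intervals of Gjc3 (-0.57 to -0.33) and Gjb1 (-0.38 to -0.12) lie below 0 and that of Panx2 (0.18 to 0.47) above it, while those of Gja1 and Gjb6 span 0.

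The same comparison was made within each sex. In males Gjc3 fell by 0.50 on the log2 scale (SE 0.08, edgeR adjusted p = 0.00498), and in females it fell by 0.40 (SE 0.08, edgeR adjusted p = 0.0261). It was the 1 of 4 members called lower in males, beside 2.39% of all genes tested, and the 1 of 4 in females, beside 1.22%. The log2 differences of Gjb1 were of like size in males (-0.26, SE 0.09, edgeR adjusted p = 0.158) and females (-0.24, SE 0.09, edgeR adjusted p = 0.265) but were not called within either sex, where the change itself rests on 5 libraries and the spread is estimated over all 10. For Gja1 the log2 differences were 0.05 in males (edgeR adjusted p = 0.81) and 0.16 in females (edgeR adjusted p = 0.437), and for Gjb6 they were 0.03 (edgeR adjusted p = 0.926) and -0.03 (edgeR adjusted p = 0.941).

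Whether the age change differed between the sexes was tested as an interaction, and in edgeR 0 of the 4 members passed at an adjusted p under 0.05, beside 0.0129% of all genes tested. At an unadjusted p under 0.05 it was also 0 of the 4, beside 4.82% of all genes tested. The male minus female difference in log2 change was -0.10 for Gjc3 (95% interval -0.34 to 0.13) and -0.02 for Gjb1 (95% interval -0.29 to 0.26). It was -0.11 for Gja1 (95% interval -0.34 to 0.12) and 0.07 for Gjb6 (95% interval -0.28 to 0.42). With 2 or 3 libraries in each group, each of these intervals was wider than the age change of Gjc3 itself. DESeq2 and limma-voom called none of the 4 either.

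Sex was the second main effect, given as male relative to female over both ages. None of the 4 members was called in edgeR, beside 0.0901% of all genes tested, and at an unadjusted p under 0.05 Gjc3 alone would have passed, beside 7.36% of all genes tested. DESeq2 and limma-voom also called none of them for sex. The 3 8-week males had less Gjc3 (187 to 202 CPM) than the 3 8-week females (212 to 223 CPM), whereas the 4-week sexes overlapped. How many other genes separate the 8-week sexes in this way was not counted. The sexes were not tested at 8 weeks alone, so no sex difference particular to that age is shown. Over both ages the log2 difference of Gjc3 was -0.12 (SE 0.06, 95% interval -0.24 to -0.01, edgeR adjusted p = 0.664). The log2 differences were -0.06 for the X-linked Gjb1 (edgeR adjusted p = 0.781), -0.03 for Gja1 (edgeR adjusted p = 0.886) and 0.10 for Gjb6 (edgeR adjusted p = 0.718).

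Because the 4 genes were measured in the same libraries, their ratios within a library do not depend on the library's scaling. The log2 ratio of Gjc3 to Gja1 ran from -0.83 to -0.69 at 4 weeks and from -1.46 to -1.23 at 8 weeks, a mean difference of -0.55 with no overlap. That of Gjb1 to Gja1 ran from -1.63 to -1.34 and from -1.98 to -1.69, a mean difference of -0.36, and that of Gjc3 to Gjb6 from 1.29 to 1.56 and from 0.54 to 1.17, a mean difference of -0.44, both also without overlap. The gap was thus seen for Gjc3 against both astrocyte connexins and, narrowly (-1.63 at 4 weeks and -1.69 at 8 weeks), for Gjb1 against Gja1. How many other pairs of genes separate the ages in this way was not counted.

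For Gjb1 over Gjb6, the pair whose proteins dock with each other, the log2 ratio ran from 0.46 to 0.76 at 4 weeks and from 0.12 to 0.60 at 8 weeks and overlapped. The ratio between the oligodendrocyte connexins, Gjb1 over Gjc3, overlapped as well (-0.85 to -0.54 and -0.74 to -0.40), as did that between the astrocyte connexins, Gja1 over Gjb6 (2 to 2.25 and 2 to 2.41). As shares of the reads on the 4 genes together, Gjc3 went from 25.8 to 28.4% at 4 weeks to 19.3 to 22.7% at 8 weeks. These ratios are descriptions of the values tested above and were not tested again.

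**Figure D3:**
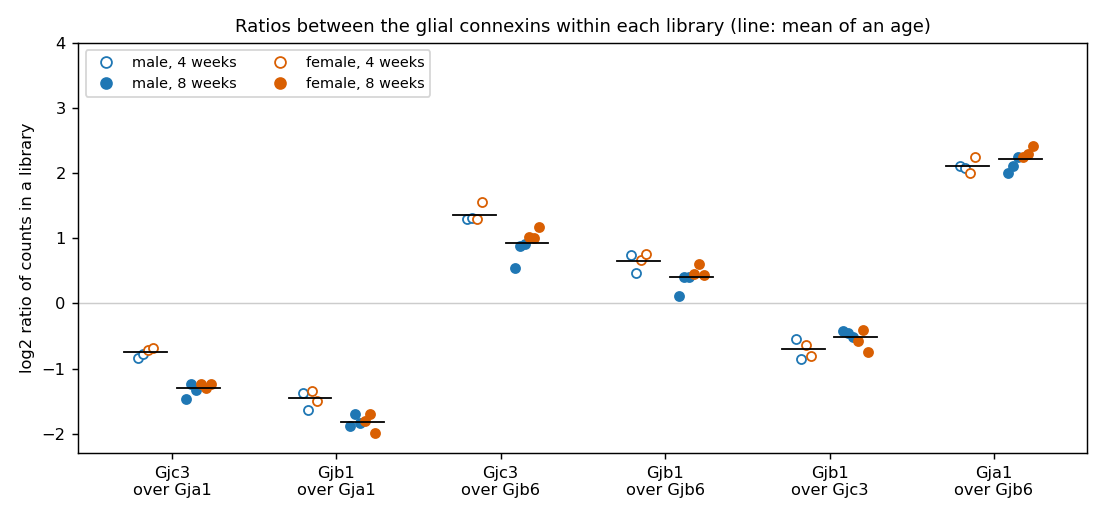
Log2 ratio between pairs of the 4 connexin genes within each library, with open points for 4-week and filled points for 8-week libraries and a line at the mean of each age. The ages separate for Gjc3 over Gja1 (all at or above -0.83 at 4 weeks and at or below -1.23 at 8 weeks), Gjb1 over Gja1 and Gjc3 over Gjb6, and overlap for the other 3 pairs.

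Levels were compared between genes per kilobase of exon, with exon lengths from the GENCODE M21 annotation of GRCm38, in which no other gene shares exon sequence with the members. At 4 weeks the order was Gja1 at 139.5 ± 8.08 CPM per kilobase, Gjb1 at 100.4 ± 3.46, Gjc3 at 70.0 ± 5.26 and Gjb6 at 51.8 ± 3.90 (SD, n = 4). At 8 weeks it was Gja1 at 150.1 ± 8.27, Gjb1 at 84.4 ± 7.01, Gjb6 at 51.8 ± 5.90 and Gjc3 at 51.4 ± 3.56 (SD, n = 6). Gja1 and Gjb1 kept the first and the second place, and Gjc3, which lay above Gjb6 at 4 weeks, did not differ from it beyond the spread at 8 weeks. The order of the 4 genes was the same when the longest transcript was used as the length.

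**Figure D4:**
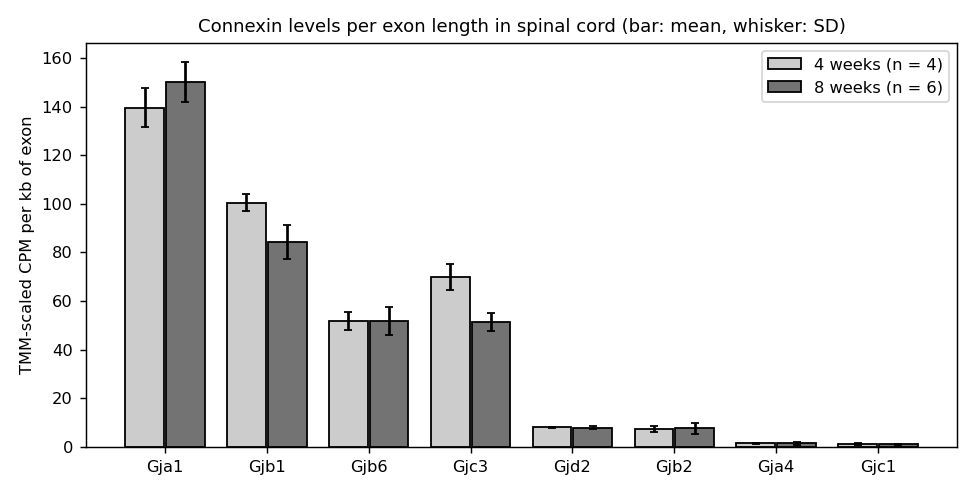
Level per kilobase of exon (CPM per kilobase, linear axis) of the 4 genes and of other connexins, as mean and SD at 4 weeks (n = 4) and 8 weeks (n = 6). Gja1 is highest at both ages, and Gjc3 goes from 70.0 at 4 weeks to 51.4 at 8 weeks, next to Gjb6 at 51.8.

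Other connexin genes were read for the same contrast. Gjd2, Gjb2, Gja4 and Gjc1 were far less abundant per length than the members, at most 8.11 CPM per kilobase at 4 weeks (Gjd2), and had no called change. Their log2 differences were -0.04 for Gjd2, the neuronal Cx36 gene (edgeR adjusted p = 0.843), 0.03 for Gjb2, the Cx26 gene (edgeR adjusted p = 0.948), 0.10 for the vascular Gja4 (edgeR adjusted p = 0.873) and -0.31 for Gjc1 (SE 0.21, edgeR adjusted p = 0.439). Among the pannexins, which form channels in the membrane of single cells, Panx2 rose, with a mean of 144 ± 18.3 CPM at 4 weeks (SD, n = 4) and 180.1 ± 7.40 CPM at 8 weeks (SD, n = 6) and a log2 change of 0.32 (SE 0.07, edgeR adjusted p = 0.00769). Within males the log2 change of Panx2 was 0.49 (edgeR adjusted p = 0.00325), and within females it was 0.17 and not called (edgeR adjusted p = 0.335). The difference between the sexes was not called either (edgeR adjusted p = 0.97). Panx1 had a log2 difference of -0.01 (edgeR adjusted p = 0.968), and Panx3 did not pass the filter.

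Of 12 genes for proteins that bind or modify connexins, 0 rose and 1 fell in edgeR, with a median log2 change of 0.03 beside 0.01 over all genes tested. The one that fell was Ybx3, a Y-box protein known to bind the scaffold protein ZO-1, at -0.51 (SE 0.08, edgeR adjusted p = 0.00187). Dbn1, the actin-binding protein drebrin, which is known to bind Cx43, was at 0.16 (edgeR adjusted p = 0.0707), and Sgsm3 was at 0.01 (edgeR adjusted p = 0.936). The 12 genes of glial potassium and water handling had a median of 0.04. Slc12a2, a sodium, potassium and chloride cotransporter, was at -0.20 (edgeR adjusted p = 0.0574) and the adhesion molecule Hepacam at -0.01 (edgeR adjusted p = 0.944).

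In bulk tissue, fewer cells of a type and less RNA per cell cannot be told apart, so marker genes of the cells that make each connexin are given beside them. The tissue label was checked in the same way: genes of cord neurons summed to between 417 and 601 CPM in every library, and genes of forebrain neurons to between 3.85 and 7.33 CPM. Of 17 genes of mature oligodendrocytes and myelin, 11 fell and 0 rose, with a median log2 change of -0.41 and a range of -1.05 to 0.01. The lowest p-values belonged to Mal (-1.05, SE 0.05, edgeR adjusted p = 1.96e-07) and Cldn11 (-0.87, SE 0.06, edgeR adjusted p = 1.08e-06), both membrane proteins of myelin, and the highest to the protease gene Klk6 (0.01, edgeR adjusted p = 0.962). The summed level of the list ran from 64169 to 68293 CPM at 4 weeks and from 40700.1 to 48606 CPM at 8 weeks. The log2 change of Gjc3 was exceeded downwards by 8 of the 17 genes and that of Gjb1 by 11 of the 17.

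Against Sox10, a transcription factor gene of the oligodendrocyte lineage, the log2 ratio of Gjb1 overlapped between the ages (-0.51 to -0.27 and -0.41 to -0.21), and so did that of Gjc3 (0.26 to 0.58 and 0.10 to 0.35). The log2 change of Sox10 itself was -0.29.

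Of 15 astrocyte genes 0 rose and 1 fell, with a median of 0.06 and a range of -0.36 to 0.22. Aldh1l1, a folate enzyme, fell by 0.27 on the log2 scale (SE 0.07, edgeR adjusted p = 0.0236), Fabp7 was at -0.36 (edgeR adjusted p = 0.0798) and S100b at -0.01 (edgeR adjusted p = 0.954). The summed level ran from 9857 to 10853 CPM at 4 weeks and from 9858 to 11939 CPM at 8 weeks. Against the water channel gene Aqp4, the log2 ratio of Gja1 overlapped between the ages (-1.12 to -0.87 and -0.98 to -0.89), as did that of Gjb6 (-3.20 to -2.87 and -3.31 to -2.90).

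Schwann cells also make Cx32 and Cx29, and their genes varied between libraries. Of 8 Schwann cell genes 1 fell and 0 rose, with a median of -0.21, and the fall was in Pmp2 (-1.14, SE 0.29, edgeR adjusted p = 0.03). Pmp22 was at -0.21 (edgeR adjusted p = 0.519) and Prx at -0.17 (edgeR adjusted p = 0.823). The summed level ran from 636 to 1386 CPM at 4 weeks and from 403 to 1311 CPM at 8 weeks. At 8 weeks the male libraries 2 and 3 had the lowest and the highest sum, 403 and 1311 CPM. Their Gjc3 levels were 202 and 187 CPM and their Gjb1 levels 146 and 132 CPM. Both libraries also held lung genes, and the part of Schwann cells in the connexin values was not tested.

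Genes of tissues outside the cord also moved with age or with single libraries. Of 12 skeletal muscle genes 11 fell, and their sum ran from 627 to 1938 CPM at 4 weeks and from 217 to 349.5 CPM at 8 weeks. A muscle score per library correlated with age at r = -0.916 over the 10 libraries, so the muscle signal and age cannot be told apart. With that score in the model Gjc3 was at -0.60 (SE 0.13, edgeR adjusted p = 0.0751) and Gjb1 at 0.08 (SE 0.12, edgeR adjusted p = 0.799), against 39 genes called in all. Adrenal cortex genes summed to 122 and 91.2 CPM in the 4-week males and to at most 11 CPM elsewhere, and lung genes to 792 and 90.1 CPM in male 8-week libraries 2 and 3 and to at most 5.88 CPM elsewhere. Without both 4-week male libraries Gjb1 was at -0.24 (edgeR adjusted p = 0.187), without male 8-week libraries 2 and 3 it was at -0.23 (edgeR adjusted p = 0.133), and the call for Gjc3 held in both cases. The part of these tissues in the connexin values was not tested in any other way.

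**Figure D5:**
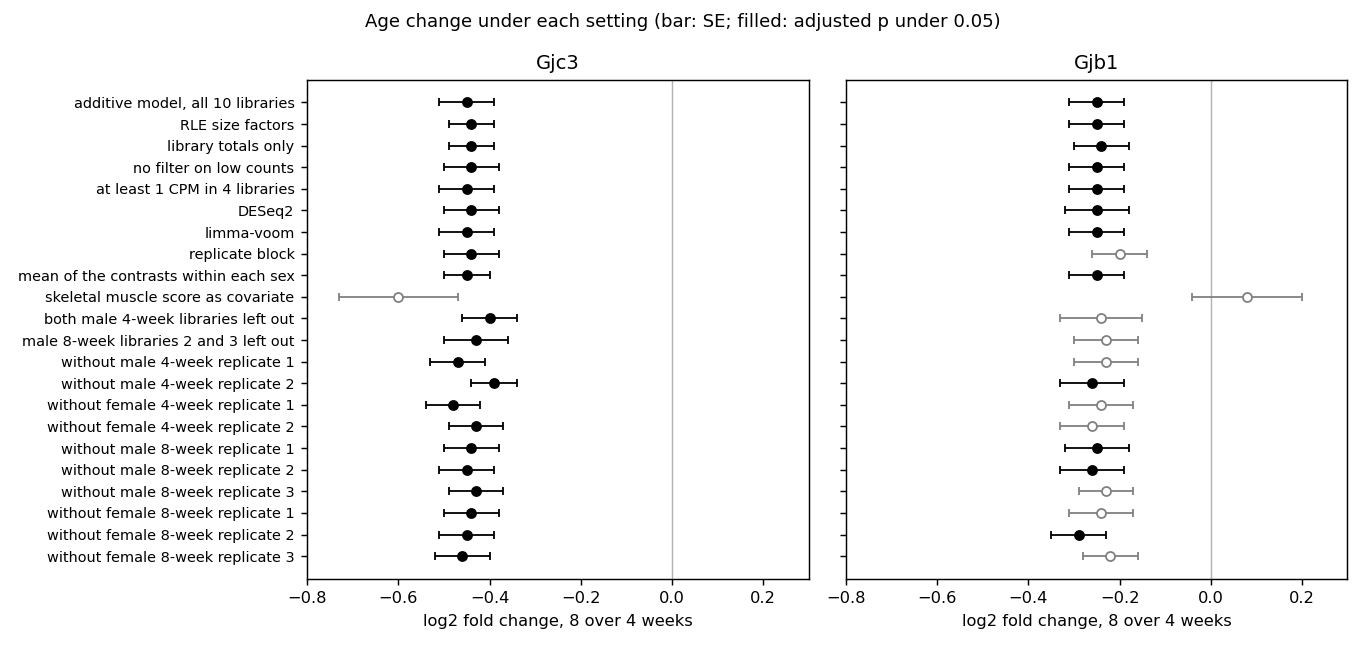
Log2 change from 4 to 8 weeks of Gjc3 and Gjb1, with its SE, under each way of processing, with filled points where the adjusted p is under 0.05. Gjc3 lies between -0.60 and -0.39 and loses its call with the muscle score alone, and Gjb1 runs from -0.29 to 0.08 with filled and open points.

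Genes whose level was most like that of each member over the 10 libraries were named from 11121 candidates, as a description that shares library and depth and, for the whole correlation, the age groups. Gjb1 was most like Lamp1 (r = 0.977), a lysosomal membrane protein gene, followed by Tmem125 (r = 0.971), and within groups of age and sex the values were 0.973 and 0.928. Gjc3 was most like Elovl6 (r = 0.981) and Elovl7 (r = 0.974), both fatty acid elongases, and Plekhg1 (r = 0.972), with within-group values of 0.768, 0.642 and 0.823. The likeness of Gjb1 to these genes was thus about as high within groups as across them, and that of Gjc3 was lower within groups.

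Gja1 was most like Wdr48 (r = 0.947), Sec63 (r = 0.924) and Fmn2 (r = 0.923). Gjb6 was most like Mthfd2l (r = 0.903), Adi1 (r = 0.87) and Oprl1 (r = 0.865). Between the members, Gjb1 and Gjc3 correlated at r = 0.786 over the 10 libraries and at -0.144 within groups, and Gja1 and Gjb6 at 0.324 and 0.647. Of the pairs across the cell types, Gjc3 and Gja1 stood at -0.323 and 0.663, and Gjb1 and Gjb6 at 0.139 and 0.417. Gjb1 and Gja1 stood at -0.417 and 0.048, and Gjc3 and Gjb6 at -0.05 and 0.22. A high value within groups was thus not particular to the astrocyte pair. Both oligodendrocyte connexins were lower at 8 weeks. Their value of -0.144 within groups of age and sex comes from 10 libraries and was not tested, so it does not decide whether their levels vary together.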

How the data were processed

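The authors deposited 1 table of raw counts per library, with reads per Entrez gene. Per the submitters' processing notes, TopHat2 2.1.0 and featureCounts were used with the mm9 build. For counting options, strand setting and annotation the sources used here give nothing. Symbols were found for 24191 of 26301 identifiers. Genes were filtered with edgeR's filterByExpr (minimum count 10, minimum total 15), leaving 15540, and scaled by TMM. The quasi-likelihood F test of edgeR 4.0.16 (R 4.3.3) was fitted on all of them, with Benjamini-Hochberg adjustment and a threshold of 0.05. Age and sex were main effects in an additive model (7 residual degrees of freedom), and a 4-group model gave within-sex changes and their difference (6 residual degrees of freedom). Standard errors are the absolute log2 change divided by the square root of F, and intervals are 95%. The 4 members and the gene lists (138 genes, all matched) were chosen with earlier results of these data known.

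Named genes were the members, the other connexins and pannexins with a mean of at least 1 CPM, the 2 lowest-p and the highest-p genes of each other list, and the 3 genes most correlated with each member (mean log2 CPM of at least 3). Genes used to set a ratio (Sox10, Aqp4) were added, and some results that this rule names are not reported here. On simulated data with 15396 genes, edgeR recovered 58% of log2 changes of 0.5 and 92% of changes of 1 in the age comparison, with 14 false calls. DESeq2 1.42.0, limma-voom 3.58.1, other scalings and filters, a replicate block, a muscle score and left-out libraries were alternatives.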

Additional observations from a re-analysis of the deposited data

Results flagged for a closer look

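Gjb6 stood at 133 CPM in male 8-week library 1, above the 99.1 to 110 CPM of the other 5 libraries at 8 weeks, and was far enough from them to be marked as a single distant sample. It was 1 of 16 checks of a group of libraries, and chance marks about 1 in 20. Without that library the log2 change of Gjb6 with age was -0.06 (edgeR adjusted p = 0.66).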

How the results depend on the processing

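Of 11 alternatives, Gjc3 kept its call in all but the muscle score (-0.60, edgeR adjusted p = 0.0751), and leaving out each library gave -0.48 to -0.39. Gjb1 lost its call with the replicate block (-0.20, edgeR adjusted p = 0.078), both 4-week male libraries left out (-0.24), male 8-week libraries 2 and 3 left out (-0.23) and the muscle score (0.08, reversed), and leaving out each library gave -0.29 to -0.22. DESeq2 and limma-voom kept it. The count of called genes, 1028, became 39 with the muscle score, 393 without the 4-week males, 474 without male 8-week libraries 2 and 3, and 719 to 1473 without 1 library. Some differences that were not called changed sign. For Gjb6 with age the values were 0.00 with RLE size factors, with no filter and in DESeq2, 0.01 with library totals and with the muscle score, 0.06 with the replicate block, 0.07 without male 8-week libraries 2 and 3, and -0.06 to 0.04 without 1 library. Without male 8-week libraries 2 and 3 the interaction of Gjb1 (0.02) and the sex difference of Gja1 (0.03) changed sign. In that setting the interaction of Gjb6 (0.29) and its sex difference (0.19) were larger and kept their sign. Leaving out each library gave interactions of -0.08 to 0.07 for Gjb1, -0.20 to 0.02 for Gjc3 and -0.05 to 0.17 for Gjb6. The cause of these shifts was not tested. The labels do not say whether the replicate numbers pair the libraries. Of 13 same-numbered pairs 5 correlated above 0.1 (-0.379 to 0.546), and 5 of 10 libraries matched best with their own number. At 4 weeks, with 2 libraries in each group, both male-female pairs necessarily gave the same value, 0.546. The check therefore cannot decide whether the numbers pair the libraries. Fitted folds of genes near 0 counts depend on the prior count.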

Other observations

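Of 8 genes of cord neurons 2 rose and 0 fell, with a median log2 change of 0.22. The genes that rose were the homeobox genes Hoxb8 (0.24, edgeR adjusted p = 0.0265) and Hoxc10 (0.42, edgeR adjusted p = 0.0276), and the choline transporter gene Slc5a7 was at -0.04 (edgeR adjusted p = 0.851). Within males Hoxb8 was at 0.38 (edgeR adjusted p = 0.00616) and Hoxc10 at 0.71 (edgeR adjusted p = 0.00372). Within females neither was called, with Hoxb8 at 0.10 (edgeR adjusted p = 0.578) and Hoxc10 at 0.14 (edgeR adjusted p = 0.639). The difference between the sexes was not called for Hoxb8 or Hoxc10 either (edgeR adjusted p = 0.97 for each). None of 7 endothelial and none of 5 ependymal genes were called in edgeR, with Flt1 at 0.62 (edgeR adjusted p = 0.125), Slco1c1 at 0.14 (edgeR adjusted p = 0.46), Kdr at 0.00 (edgeR adjusted p = 0.999), Tmem212 at 0.85 (edgeR adjusted p = 0.0947), Foxj1 at -0.16 (edgeR adjusted p = 0.197) and Rarres2 at 0.04 (edgeR adjusted p = 0.936). At an unadjusted p under 0.05, Flt1, Tmem212 and Foxj1 would have passed, beside 21% of all genes tested.

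Of 9 genes of meninges and fibroblasts 4 fell and 0 rose, with a median of -0.29, and their sum ran from 831 to 1686 CPM at 4 weeks and from 336 to 609 CPM at 8 weeks. The collagen genes Col1a1 (-2.42, edgeR adjusted p = 3.73e-06) and Col1a2 (-2.10) fell, and Slc6a13 was at -0.03 (edgeR adjusted p = 0.962). Among the muscle genes, Myh1 (-4.14, edgeR adjusted p = 2.13e-05) and Mylpf (-3.50, edgeR adjusted p = 6.28e-05) fell, while Pygm was at -0.14 (edgeR adjusted p = 0.243). All 5 adrenal cortex genes fell, with high levels in the 2 4-week male libraries, among them Hsd3b1 (edgeR adjusted p = 1.08e-06), Cyp11b1 (edgeR adjusted p = 2.52e-06) and Cyp11a1 (-2.31, edgeR adjusted p = 0.0253). Of 5 lung genes 1, Sftpb, rose, on male 8-week libraries 2 and 3 (edgeR adjusted p = 0.0365), and Sftpc (edgeR adjusted p = 0.0552) and Sftpd (edgeR adjusted p = 0.121) did not pass. The forebrain gene Neurod6 was at -0.12 (edgeR adjusted p = 0.745).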
